A study of Mus musculus with 21 samples.

Results

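ChIP-seq for Zbtb1, a transcription factor with a BTB domain and zinc fingers that lymphoid cells depend on, gave a list of 5898 peaks in lymphoid progenitors (LPs). The 1114 peaks described here lay in an intron by the annotation in that list, shared no base with any of the 6077 peaks listed for Cbfa2t3, a corepressor of the ETO family, and were not annotated as a simple repeat or as low-complexity sequence. They were chosen by these peak calls, so that binding of Zbtb1 and the lack of a called Cbfa2t3 peak are the selection and not a finding. Of the 1911 intronic Zbtb1 peaks, another 570 were shared with Cbfa2t3, and 227 were left out as repeats, 218 of them without a shared base. In the GENCODE basic annotation, the centres of 52 of the 1114 peaks (4.67%) lay in an exon, among them the peaks near *Txndc11* and *Jpx* printed below. Where a value separates both kinds of intronic peak, the 570 shared peaks are the comparison.

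The cells were a C57BL6/J LP cell line that lacks *Ebf1*, the gene of a factor that starts the B-cell programme, and was kept on OP9 stromal cells without Notch stimulation. All groups share the *Ebf1* deficiency and the culture on OP9. For ChIP-seq, unedited LPs were used, with 2 libraries per factor and a mixture of a pair of antibodies to each, but the peaks found in both replicates were deposited as 1 list per factor, so that no peak value has a replicate error. The lists do not give the reads behind a peak. For expression, Cas9-expressing LPs received retroviral guide RNAs, 2 pooled per target, against luciferase (sgCont), *Zbtb1* (sgZbtb1), *Cbfa2t3* (sgCbfa2t3), *Lmo2* (sgLmo2) or *Cbfa2t2* (sgCbfa2t2). GFP+ hNGFR+ cells were sorted 5 days later for QuantSeq, which reads the 3' end of mRNA, with 3 libraries per group. Each is a pool of edited cells of 1 line, not a clone.

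An intron can hold enhancers of its own gene or of a neighbour, and the first intron often holds the downstream part of the promoter. Runx factors bind a core spelled TGTGGT and act at many enhancers of blood cells, E-proteins and their partners bind E-boxes such as CAGCTG, and Sp-family proteins bind the GC box GGGCGG that is frequent in CpG islands, the unmethylated GC-rich stretches at many promoters. Corepressors of the ETO family have no DNA-binding domain of their own that reads a sequence and are brought to DNA by such factors. The core TGGTGGT is that of the motif of Zbtb7c, another BTB and zinc finger protein.

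The sequences at the peak centres show the main kinds of site. Each is 120 bp of the plus strand of mm10, written 5' to 3', and capitals mark the Runx core TGTGGT, the Zbtb7c core TGGTGGT, the GC box GGGCGG and the E-box CAGCTG on either strand, so that a Runx core on the minus strand appears as ACCACA. The first set, outside CpG islands, was taken from chr16:92800954-92801073 in intron 2 of *Runx1* (score 74.1), chr8:84703472-84703591 in intron 3 of *Lyl1* (score 77.7), chr19:55768998-55769117 in intron 4 of *Tcf7l2* (score 63.8) and chr6:146452539-146452658 in intron 2 of *Itpr2* (score 57.8). The first pair was chosen as members of a gene list and the second for a changed nearest gene, and they are shown together as each holds the Runx core, from 1 copy up to 4 copies near *Itpr2*. The windows near *Cpne2* and *Mbtps2*, also chosen for a changed nearest gene, hold none and stand in the sets that follow.
Runx1: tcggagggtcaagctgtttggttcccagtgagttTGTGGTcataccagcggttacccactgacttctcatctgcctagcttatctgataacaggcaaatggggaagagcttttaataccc
Lyl1: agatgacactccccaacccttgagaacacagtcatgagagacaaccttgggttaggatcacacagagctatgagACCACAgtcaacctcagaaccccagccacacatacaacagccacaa
Tcf7l2: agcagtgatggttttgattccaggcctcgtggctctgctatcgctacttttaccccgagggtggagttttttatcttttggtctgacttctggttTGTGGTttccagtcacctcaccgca
Itpr2: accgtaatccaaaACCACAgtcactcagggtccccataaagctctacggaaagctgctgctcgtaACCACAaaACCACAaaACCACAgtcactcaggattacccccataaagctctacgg

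A second set holds tandem copies of TGG. The window at chr8:94519896-94520015, in intron 37 of *Nlrc5* and nearest to *Cpne2*, had 10 overlapping copies of TGGTGGT (score 48.4). The window at chr13:51409850-51409969, in the only intron of *S1pr3*, had 17 copies beside 1 Runx core (score 239.2) and was chosen after its values were seen.
Cpne2: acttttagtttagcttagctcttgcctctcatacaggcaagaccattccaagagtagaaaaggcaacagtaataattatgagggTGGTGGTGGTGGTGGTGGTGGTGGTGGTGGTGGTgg
S1pr3: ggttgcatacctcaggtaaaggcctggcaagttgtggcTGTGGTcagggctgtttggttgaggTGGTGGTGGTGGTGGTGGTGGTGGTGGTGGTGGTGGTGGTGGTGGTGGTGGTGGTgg

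The third set lies in CpG islands, in the first introns of *Mum1* (chr10:80226655-80226774, score 419.8, gene *Pwwp3a* in the current annotation), *Jpx* (chrX:103493754-103493873, score 191.8, chosen after its values were seen), *Trp53inp1* (chr4:11156497-11156616, score 142.8) and *Mbtps2* (chrX:157598242-157598361, score 26.8). None of the 4 windows has a Runx core, and 3 of them have a GC box.
Mum1: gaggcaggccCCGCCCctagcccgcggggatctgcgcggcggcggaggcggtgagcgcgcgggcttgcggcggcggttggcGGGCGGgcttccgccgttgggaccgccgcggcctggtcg
Jpx: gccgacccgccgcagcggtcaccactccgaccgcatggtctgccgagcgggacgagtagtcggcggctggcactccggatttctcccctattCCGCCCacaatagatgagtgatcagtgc
Trp53inp1: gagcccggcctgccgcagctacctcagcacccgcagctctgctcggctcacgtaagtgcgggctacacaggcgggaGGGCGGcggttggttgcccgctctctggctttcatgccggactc
Mbtps2: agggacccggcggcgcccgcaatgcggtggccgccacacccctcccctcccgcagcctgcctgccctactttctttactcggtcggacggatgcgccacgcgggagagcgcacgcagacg

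The last set lies in repeated sequence. An ORR1D2 long terminal repeat held the peak at chr8:82874246-82874365 in intron 1 of *Rnf150* (score 63), chosen after its values were seen. Copies of the large ribosomal RNA gene held the peaks at chr16:11144095-11144214, in intron 19 of *Zc3h7a* and nearest to *Txndc11* (score 1394.1), and at chr9:56223610-56223729, in intron 6 of *Peak1* and nearest to *Tspan3* (score 676.5).
Rnf150: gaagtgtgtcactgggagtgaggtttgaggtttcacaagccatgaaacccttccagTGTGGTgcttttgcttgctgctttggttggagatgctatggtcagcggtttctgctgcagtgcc
Txndc11: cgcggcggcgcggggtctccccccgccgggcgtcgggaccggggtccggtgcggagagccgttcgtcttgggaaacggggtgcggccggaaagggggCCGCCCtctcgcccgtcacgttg
Tspan3: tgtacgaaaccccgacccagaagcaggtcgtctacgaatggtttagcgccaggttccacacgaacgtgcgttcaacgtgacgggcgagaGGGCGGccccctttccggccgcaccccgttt

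The peak score is the normalised tag count that HOMER, the authors' peak caller, gives each peak. Among the 1114 peaks it ran from 15, the lowest in the Zbtb1 list, to 1394.1, with a median of 25.5 and quartiles of 18.9 and 39.6. The median was 28.6 for the 570 shared intronic peaks, 31.5 for the 1523 promoter peaks and 23.8 for the 700 intergenic peaks of Zbtb1 alone. By this scale 342 peaks (30.7%) scored under 20 and 44 scored at least 100. The Cbfa2t3 list began at a score of 20.6, so that a weaker Cbfa2t3 signal at these sites would not be listed. The lowest scores were 15 near *Bckdha*, whose product takes part in the breakdown of branched amino acids, and near *Mxd4*, a partner of Max.

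The median gap to the nearest Cbfa2t3 peak was 53206 bp. In all, 877 peaks (78.7%) lay more than 10 kb away, whereas 51 lay within 1 kb. Intergenic and promoter peaks of Zbtb1 alone had median gaps of 54024 and 79449 bp, with 76 and 85.4% more than 10 kb away. These gaps come from the same peak calls that chose the peaks. Just inside the rule, the peaks near *Adora3*, *Map3k19* and *Dhx34* had gaps of 9, 10 and 31 bp. Just outside it, peaks near *Rnf166*, *Cdkal1* and *Calm2* shared 4, 12 and 15 bases with a Cbfa2t3 peak.

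Among the 10 highest scores, the ranks 1, 2 and 4 were the 3 ribosomal RNA copies, near *Txndc11*, *Tspan3* and *Filip1l* (score 385). The CpG islands of *Pwwp3a* (named *Mum1* in the list), *Mllt10* (score 262), *Qrich1* (score 254.7) and *Arl4d* (score 240.6) gave 4 more. Peaks near *S1pr3*, a receptor for sphingosine 1-phosphate, and near *Fam71f1* (score 193.5) were also among the 10. A high score did not go with a high level of the nearest gene in each case. *Arl4d* and *Fam71f1* were listed at 0 in the 3 sgCont libraries, whereas *Qrich1* had 34.3, 44.0 and 59.2 TPM.

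CpG islands divided the peaks. In all, 290 peaks (26.0%, Wilson 95% interval 23.5 to 28.7%) were annotated as CpG island, against 41 of the 570 shared intronic peaks (7.19%), a difference of 18.8 percentage points (Newcombe 95% interval 15.4 to 22.1). Of these 290, 84.5% lay under 1 kb from the nearest annotated promoter and 93.8% in the first intron, with a median distance of 413.5 bp. The other 824 peaks lay at a median of 15677 bp, 60.9% of them over 10 kb away and 40.9% in the first intron. By GENCODE transcript starts, 90% of the first group and 85 of the 824 (10.3%) lay under 1 kb away. Intervals on shares of peaks cover the counting of peaks only.

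**Figure D1:**
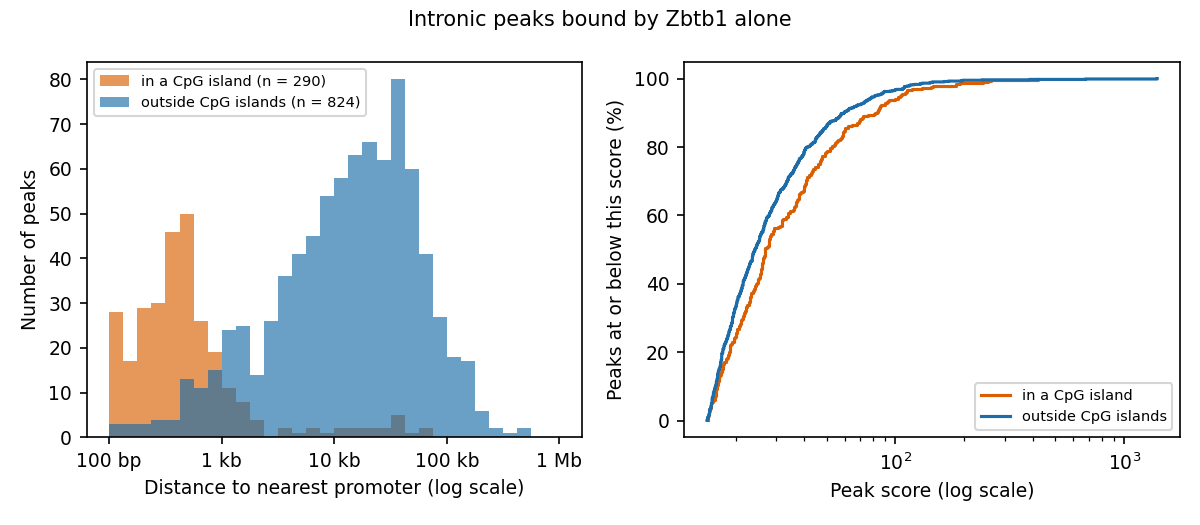
The left plot shows the number of Zbtb1-alone intronic peaks by distance to the nearest promoter (log scale, bp), and the right plot the percentage of peaks at or below each peak score (log scale), for the 290 peaks in a CpG island (orange) and the 824 outside (blue). The CpG-island peaks lie mostly under 1 kb, around their median of 413.5 bp, and the others around 15677 bp, while the score curves lie close together, with medians of 27 and 24.3.

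Over all 1114 peaks, 609 (54.7%) lay in the first intron of the annotated transcript, against 228 (40%) of the shared intronic peaks, a difference of 14.7 points (Newcombe 95% interval 9.65 to 19.6). Under 1 kb from a promoter lay 301 (27.0%) and 45 (7.89%), which differed by 19.1 points (15.6 to 22.4). Outside CpG islands the first-intron shares were 40.9% and 36.3%, a difference of 4.60 points (-0.729 to 9.84), and 6.80% and 3.40% lay under 1 kb from a promoter (3.39 points, 0.948 to 5.68). The peaks were spread over all main chromosomes except Y, from 10 on chromosome X to 99 on chromosome 2, which is 14.6 to 23.4% of the Zbtb1 peaks of each chromosome.

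The letters under the peaks followed the same division. In 200 bp centred on each peak, the Runx core TGTGGT, searched on both strands, was present in 587 of the 824 peaks outside CpG islands (71.2%, Wilson 95% interval 68.1 to 74.2%) and in 28 of the 290 in CpG islands (9.66%, 6.77 to 13.6%). The 2 windows of the same length 5 kb to each side of the peaks outside CpG islands held it in 17.6% of 1648 cases. Over all 1114 peaks the share was 55.2%, against 18.0% in windows to each side, a ratio of 3.08. Outside CpG islands, no difference in the Runx core between peaks without and with Cbfa2t3 was detectable. It was present in 72.8% of 529 shared intronic peaks, and the difference of -1.54 points had a Newcombe 95% interval of -6.36 to 3.41. In 610 intergenic peaks of Zbtb1 alone, also outside CpG islands, the share was 69.3%, a difference of 1.89 points (-2.86 to 6.70).

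Copies of the Runx core gathered at the centres. Outside CpG islands, 313 peaks had 1 copy, 178 had 2 and 96 had 3 or more, and 237 had none. Of the 1054 copies in all, 47.5% lay within 25 bp of the peak centre, and the nearest copy was at a median of 17 bp. Peaks of every strength carried it, with 64.4, 73.2, 76.1 and 71.4% in 4 groups of about equal size from the lowest to the highest scores, and the intervals overlapped.

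**Figure D2:**
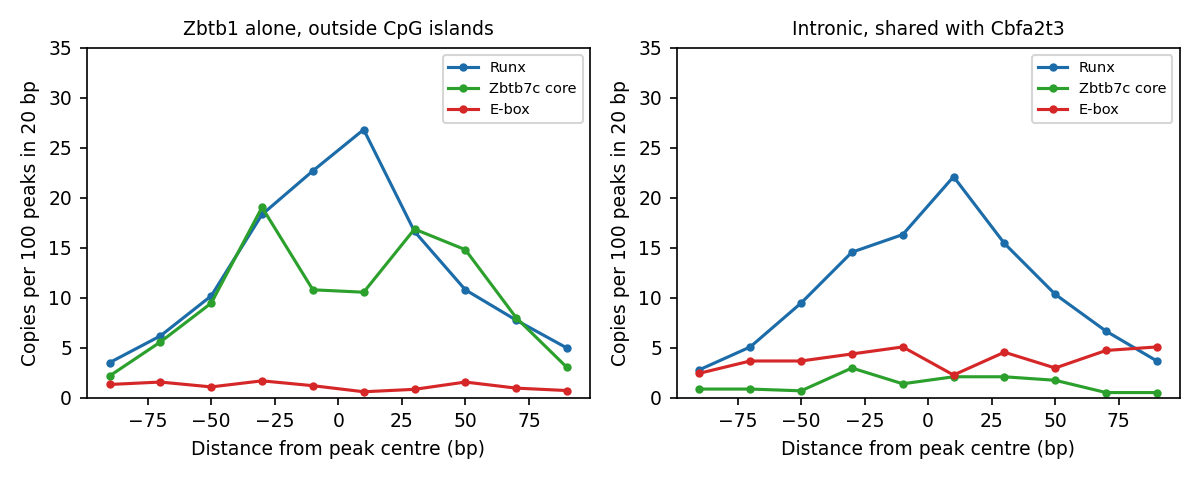
Copies of the Runx core TGTGGT (blue), the Zbtb7c core TGGTGGT (green) and the E-box CAGCTG (red) per 100 peaks in steps of 20 bp across the 200 bp around the peak centre, for the 824 Zbtb1-alone peaks outside CpG islands (left) and the 570 shared intronic peaks (right). The Runx core peaks at the centre in both, at 26.8 copies per 100 peaks on the left. TGGTGGT reaches 19.1 on the left, where 709 of its 827 copies lie in the 67 windows with tandem runs, and 2.98 on the right, and CAGCTG stays under 2 on the left and reaches 5.09 on the right.

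The E-box CAGCTG set both kinds of intronic peak apart. It was present in 11.3% of the 824 peaks outside CpG islands, against 9.95% of the windows 5 kb to each side, a difference of 1.34 points with an interval of -1.18 to 4.04. Intergenic peaks of Zbtb1 alone outside CpG islands held CAGCTG in 12.3%, and the difference of -1.01 points had an interval of -4.48 to 2.33. In shared intronic peaks outside CpG islands it was present in 34.0%, a difference of -22.7 points for peaks of Zbtb1 alone (-27.3 to -18.2). The related CAGGTG was present in 11.8% against 20.6% (-8.83 points, -13.0 to -4.82). Within the peaks of Zbtb1 alone, CAGCTG was present in 11.4% of windows with a Runx core and in 11.0% of those without one. The ETS core CGGAAG was also less frequent, at 4.85% against 9.26% (-4.41 points, -7.46 to -1.65), but for the PU.1-type ETS core GAGGAAG, at 14.9% against 16.6%, no difference was detectable (-1.71 points, -5.81 to 2.21). The GATA core AGATAA, at 6.67% against 8.51%, had an interval of the difference of -4.91 to 1.00 points.

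The core TGGTGGT was more frequent in the peaks of Zbtb1 alone. Outside CpG islands it was present in 20.4% against 10.0% of shared peaks, 10.4 points higher (6.50 to 14.1), and in 5.10% of windows to each side. Tandem runs were among these windows, such as those near *Cpne2* and *S1pr3*, although peaks annotated as simple repeats had been left out. Windows with 3 or more overlapping copies, up to 25, made up 67 of 824 peaks (8.13%), 6 of 529 shared peaks (1.13%) and 1 of 1648 windows to each side. Without such windows the shares were 13.3 and 8.99%, and the difference was 4.36 points (0.803 to 7.74). These 67 windows held 709 of the 827 copies, so that the plot of copies by distance shows mainly the runs. By window, 100 of the 168 with a copy had one within 25 bp of the centre. Intergenic peaks of Zbtb1 alone outside CpG islands held the core in 19.0%, a difference of 1.37 points (-2.84 to 5.48).

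Peaks in CpG islands carried GC boxes instead. The GC box GGGCGG was present in 62.1% of the 290 and in 66.0% of the 1523 promoter peaks of Zbtb1 alone (a difference of -3.92 points, -10.1 to 1.99), against 10.3% of intronic peaks outside CpG islands. Their mean GC content was 71.6% ± 6.60 (SD over 290 windows), against 51.8% ± 6.91 outside CpG islands, 54.5% ± 7.10 in the shared intronic peaks and 46.2% ± 7.87 in windows 5 kb to each side. The letters TGCGGT, which differ from the Runx core by a C and were chosen after their counts were seen, were present in 34.8% of CpG-island peaks, in 13.7% of the others and in 2.11% of windows to each side. They were present in 24.5% of promoter and 18.25% of intergenic peaks of Zbtb1 alone, and in 15.5% of shared intronic peaks outside CpG islands. TGCGGT holds a CG, of which CpG-island windows had a mean of 23.4, the others 4.23 and the windows to each side 2.46. The part of this in the shares was not tested.

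**Figure D3:**
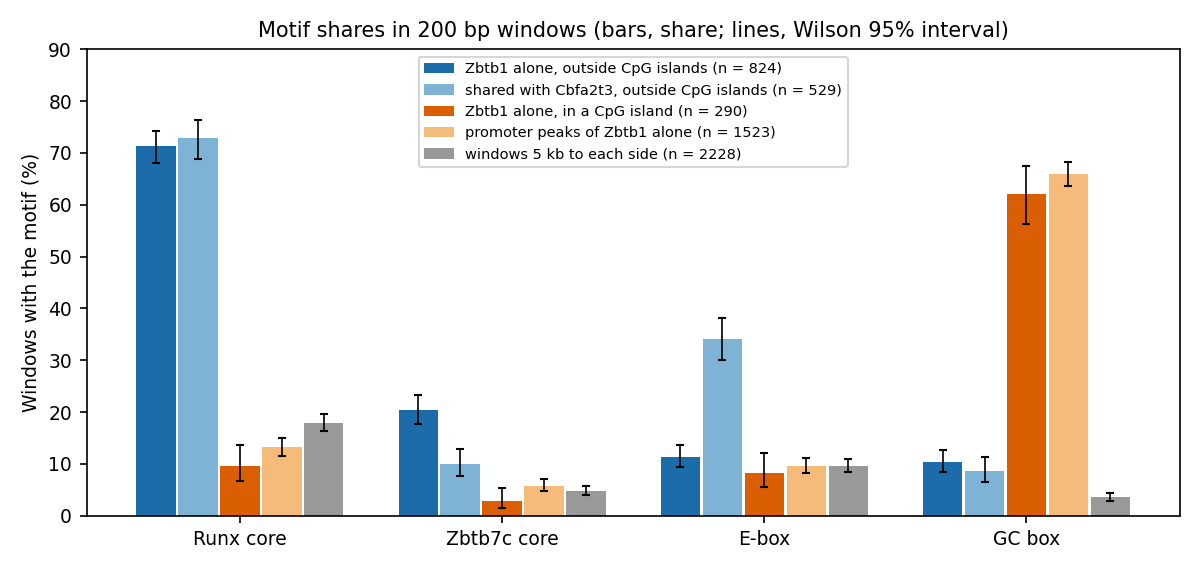
Percentage of 200 bp windows that hold the Runx core TGTGGT, the Zbtb7c core TGGTGGT, the E-box CAGCTG and the GC box GGGCGG in 5 sets of windows (bars, with Wilson 95% intervals of counting error as lines). Peaks of Zbtb1 alone outside CpG islands (dark blue, 824) lie near shared peaks (light blue, 529) for the Runx core, at 71.2 against 72.8%, and below them for the E-box, at 11.3 against 34.0%.

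A count of all 7-letter words, with reverse complements joined, gave the same leading letters. Of 701 words present in at least 5% of the 824 peaks outside CpG islands, 115 were more than 2 times as frequent as in the windows to each side. The highest ratio was that of ACCGCAG, at 6.19 against 0.668%, followed by ACCACAA at 27.4 against 3.10%. AACCACA, a Runx core with 1 more letter, was present in 42.0% of the peaks, in 5.95% of the windows to each side and in 41.0% of the shared peaks.

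Interspersed repeats held 118 of the 1114 peaks (10.6%, interval 8.92 to 12.5%), of which 54 lay in long terminal repeats, 35 in SINE, 23 in LINE and 6 in DNA elements. The share was 8.07% in shared intronic peaks, 2.52 points lower with an interval of the difference of -0.509 to 5.29, and 19.6% in intergenic peaks of Zbtb1 alone. No CpG-island peak carried a repeat annotation, since the list gives 1 annotation per peak. Outside CpG islands the shares were 14.3%, 8.70% in shared peaks (5.62 points, 2.12 to 8.94) and 22.5% in intergenic peaks (-8.14 points, -12.3 to -4.09). Among families, ORR1, a group of rodent long terminal repeats, was the most frequent, with 29 peaks (2.60%) against 4 shared peaks (0.702%), 1.90 points higher (0.560 to 3.09). Outside CpG islands the share was 3.52%, against 0.756% of shared peaks (2.76 points, 1.19 to 4.32) and 3.44% of intergenic peaks of Zbtb1 alone (0.0768 points, -1.98 to 1.98), so that no difference from the intergenic peaks was detectable. ORR1 was singled out after the family counts were seen. The Runx core was present in 21 of the 29 (72.4%), as in the *Rnf150* sequence, and their scores ran from 15.4 to 63, with a median of 21.6.

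The nearest genes tied the peaks to the expression data. The list named 942 genes for 1027 peaks, and no name was given for 87. The host gene of the intron was the nearest gene for 815 of 1110 peaks with a known host. In the expression table, 934 of these genes were found, 94 of which were also nearest to a shared intronic peak (10.1% of the 934 and 20.8% of the 451 genes of shared peaks). Values are the authors' TPM, which for these 3' reads are reads scaled to the library total, not corrected for length. Of the protein-coding nearest genes, 80.8% exceeded 1 TPM in sgCont, against 46.3% of all protein-coding genes. The share was 92.3% for genes next to CpG-island peaks and 76.1% for genes next to the others, so that most but not all of these protein-coding genes exceeded 1 TPM.

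Total reads per expression library were 1705416 to 2095448. The libraries are named by their labels, since *Zbtb1* mRNA itself was higher in sgZbtb1, at 94.4, 113.3 and 109 TPM against 62.7, 66.6 and 55.7 TPM in sgCont, and a 3' read does not see a small edit upstream of it. *Cbfa2t3* likewise had 340.5, 344.3 and 364.5 TPM in sgCbfa2t3 against 209.6, 188.7 and 172.4 TPM. *Lmo2* had 8.48, 24.4 and 15.9 TPM in sgLmo2 against 23.2, 16.2 and 15.8 TPM. *Cbfa2t2* had 25.5, 23.9 and 16.4 TPM in sgCbfa2t2 against 11.0, 12.2 and 12.3 TPM, so that mRNA level checked none of the labels. By immunoblot, the paper reports loss of the Lmo2, Zbtb1 and Cbfa2t3 proteins in Cas9-expressing LPs that received the guides against them. Markers of lymphoid progenitors (*Il7r*, *Flt3*, *Kit*, *Ly6d*, *Rag1*, *Dntt* and *Ptprc*) summed to 1101 to 1154 TPM in sgCont and to 851 to 924 TPM in sgZbtb1, and none was at 0 in sgCont. The 4 markers of mature T cells summed to at most 1.74 TPM, and *Cd3e*, *Cd8a* and *Trbc2* were at 0 in sgCont. Markers of B cells past the *Ebf1* step summed to 5.21 to 8.79 TPM in sgCont and 0 to 1.96 TPM in sgZbtb1. Of 8 markers of OP9 stroma, 6 were at 0 in sgCont, and the sums were 4.63 to 9.97 and 1.47 to 6.14 TPM. The 5 myeloid markers summed to 15.1 to 17.0 and 8.61 to 22.9 TPM. The part of these differences in the results below was not tested, and in bulk libraries fewer cells of a type and less RNA per cell cannot be told apart.

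Genes next to these peaks fell more often than genes in general in the libraries labelled sgZbtb1. Of 934 nearest genes, 716 had a mean above 1 TPM over the 15 libraries of the fit and were tested. Of these, 56 (7.82%) passed a limma adjusted p under 0.05 (Benjamini-Hochberg over all genes), against 4.79% of all 11554 genes tested. The count was 36 (5.03%) without sgCont replicate 2 and 37 (5.17%) without sgCont replicate 3, against 3.06 and 2.86% of all genes. The 43 that fell made up 6.01% of the nearest genes, against 2.94% of all genes, while the 13 that rose made up 1.82%, against 1.85%. The median log2 fold change was -0.0556 for the nearest genes and -0.0275 for all genes. By a log2 fold change over 1 in either direction at an unadjusted p under 0.05, with a mean above 10 TPM in either group, 25 nearest genes (3.49%) passed, 4 higher and 21 lower, against 1.66% of all genes. Since more nearest genes than other genes are well expressed, the counts were also taken above a mean of 10 TPM, where 7.79% of the nearest genes fell, against 3.84% of all genes.

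Next to peaks outside CpG islands 34 of 486 genes fell (7.0%) and 9 rose (1.85%), and next to CpG-island peaks 11 of 249 fell (4.42%) and 6 rose (2.41%), beside 2.94% lower and 1.85% higher of all genes. Next to shared intronic peaks 26 of 331 fell (7.85%) and 6 rose, next to intergenic peaks of Zbtb1 alone 20 of 333 fell (6.01%) and 9 rose, and next to promoter peaks of Zbtb1 alone 34 of 1247 fell (2.73%) and 33 rose. The differences between these sets, which share genes, were not tested. With the Runx core under the peak, 24 of 365 genes fell (6.58%) and 5 rose.

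**Figure D4:**
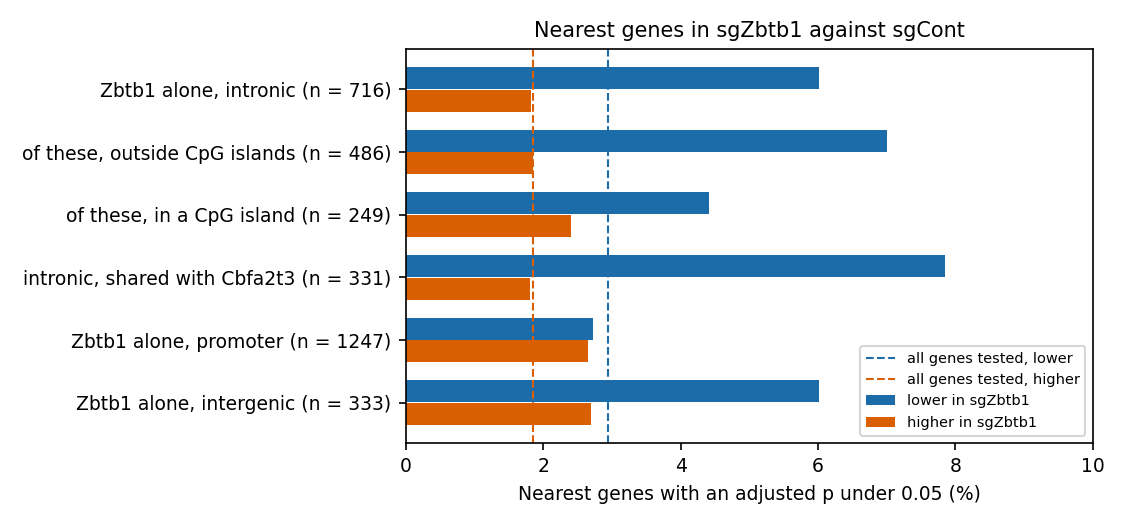
Percentage of tested nearest genes that were lower (blue) or higher (orange) in sgZbtb1 than in sgCont at a limma adjusted p under 0.05, for 6 sets of Zbtb1 peaks, with dashed lines at 2.94% (lower) and 1.85% (higher) for all 11554 genes tested. Lower genes stand at 6.01% next to the Zbtb1-alone intronic peaks and at 2.73% next to promoter peaks.

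Among protein-coding nearest genes with a mean above 10 TPM in either group, an adjusted p under 0.05 and no overlap between the libraries, the largest falls were at *Tcf7l2*, *Itpr2* and *Cpne2*, whose sites are printed above. *Tcf7l2*, a TCF/LEF factor of the Wnt pathway, had 16.3, 4.05 and 13.5 TPM in sgCont and 1.68, 0 and 1.47 TPM in sgZbtb1 (log2 fold change -2.53 ± 0.467 SE on log2(TPM + 1), limma adjusted p = 0.000145). The second sgCont library was low. *Itpr2*, an IP3 receptor that releases calcium from the endoplasmic reticulum, had 19.8, 40.5 and 41.0 TPM in sgCont and 4.47, 5.26 and 4.91 TPM in sgZbtb1 (log2 fold change -2.50 ± 0.284, limma adjusted p = 1.11e-09). *Cpne2*, a copine that binds membranes when calcium is present, had 41.2, 38.2 and 35.2 TPM in sgCont, 10.1, 4.78 and 5.89 TPM in sgZbtb1 and 17.2, 16.6 and 16.6 TPM in sgCbfa2t3. It differed from sgCont in both groups by -2.36 ± 0.268 and -1.14 ± 0.268 on the log2 scale (limma adjusted p = 1.04e-09 and 0.0217). The call in sgCbfa2t3 was lost without any 1 of the 6 libraries compared (limma adjusted p = 0.0579 to 0.0962).

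Next in size came *Glp1r*, the receptor of glucagon-like peptide 1, whose peak (score 19) lay 40465 bp away in an intron of *Dnah8*. It had 28.5, 22.0 and 21.7 TPM in sgCont and 3.91, 9.56 and 7.86 TPM in sgZbtb1 (log2 fold change -1.69 ± 0.315, limma adjusted p = 0.000179). *Mbtps2*, the site-2 protease that frees SREBP factors from the membrane, had its peak in the CpG island 413 bp from its promoter. It had 9.29, 17.9 and 22.9 TPM in sgCont and 4.47, 3.82 and 7.86 TPM in sgZbtb1 (log2 fold change -1.44 ± 0.370, limma adjusted p = 0.0104), so that the groups came close. *5031439G07Rik* had 112.7, 123.3 and 119.6 TPM against 42.5, 38.7 and 49.1 TPM, a clear gap (log2 fold change -1.43 ± 0.135, limma adjusted p = 3.46e-12).

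Fewer genes rose, and the largest rises stood next to weak peaks, apart from *Tspan3*. *Syne2*, a nesprin that links the nucleus to the cytoskeleton, had 3.48, 0 and 0.586 TPM in sgCont and 12.9, 15.8 and 15.7 TPM in sgZbtb1 (log2 fold change 3.03 ± 0.596, limma adjusted p = 0.000411), with a peak of score 16.1 in intron 1. *Gramd3* had 4.64, 3.47 and 2.35 TPM against 14.0, 12.4 and 11.3 TPM (log2 fold change 1.62 ± 0.448, limma adjusted p = 0.0189). Both genes were low in the 3 sgCont libraries.

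*Tspan3*, a tetraspanin, had 26.7, 27.8 and 35.8 TPM in sgCont and 93.9, 87.5 and 67.8 TPM in sgZbtb1 (log2 fold change 1.43 ± 0.202, limma adjusted p = 4.27e-07). Its peak was the ribosomal RNA copy 62600 bp away in *Peak1*, so that the pairing by distance is loose. *Cnn3*, a calponin of the actin cytoskeleton, had 98.7, 49.8 and 66.3 TPM against 158.7, 127.2 and 128.2 TPM (log2 fold change 0.99 ± 0.156, limma adjusted p = 6.86e-06). *Actn1*, an actin-crosslinking alpha-actinin, rose by 0.65 ± 0.174 on the log2 scale (limma adjusted p = 0.0155) and *Smarca2*, the BRM helicase of SWI/SNF complexes, by 0.60 ± 0.161 (limma adjusted p = 0.0153). The calls of *Gramd3*, *Actn1*, *Smarca2* and *Mbtps2* were kept in 7 of 13, 10 of 14, 10 of 14 and 10 of 14 alternatives. All 4 were lost without sgCont replicate 3 (limma adjusted p = 0.106, 0.0966, 0.0976 and 0.116), and each also without at least 2 other single libraries.

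Among the nearest genes of the 10 highest peaks, *Tspan3* and *Pwwp3a* rose and the others tested did not pass. *Pwwp3a*, a PWWP domain protein of chromatin, had 70.3, 69.5 and 55.1 TPM in sgCont and 89.4, 107.6 and 97.2 TPM in sgZbtb1 (log2 fold change 0.59 ± 0.155, limma adjusted p = 0.0128, and 0.121, 0.0915 and 0.0504 without sgCont replicate 3, sgZbtb1 replicate 2 or sgZbtb1 replicate 3). *Txndc11*, next to the highest score among the peaks described here, had 37.8, 35.3 and 24.6 TPM against 26.8, 35.9 and 33.4 TPM, overlapping groups. *S1pr3* had means of 20.2 and 19.8 TPM, *Qrich1* 45.8 and 48.8 TPM and *Filip1l* 12.4 and 12.9 TPM.

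**Figure D5:**
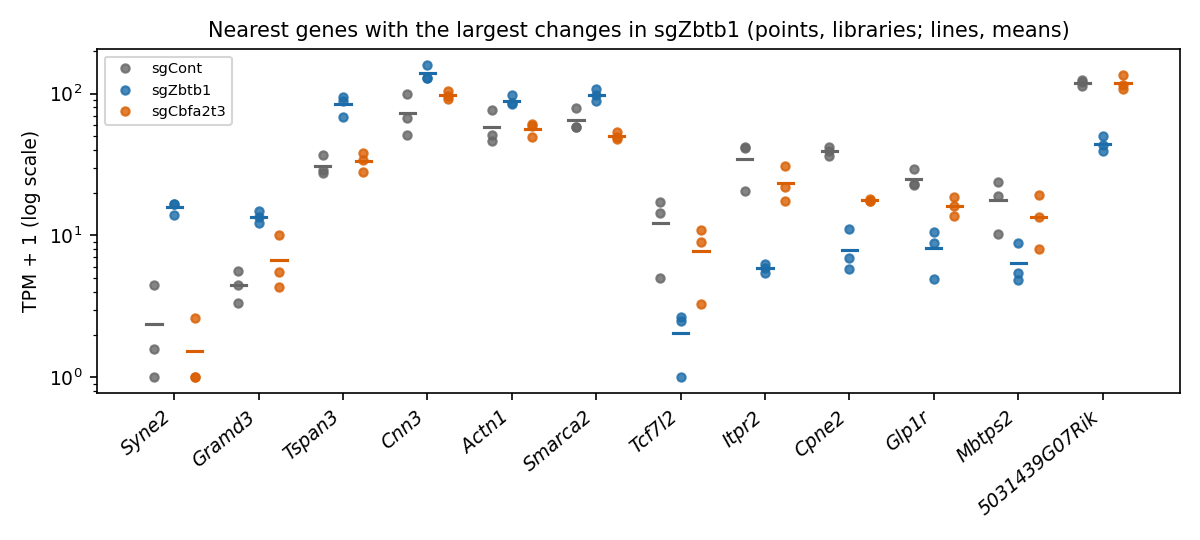
TPM + 1 (log scale) of the 12 nearest genes with the largest changes in sgZbtb1, as points for the 3 libraries of sgCont (grey), sgZbtb1 (blue) and sgCbfa2t3 (orange), with lines at the group means. The 12 genes were chosen for sgZbtb1 points that lie apart from sgCont, and the sgCbfa2t3 points of *Cpne2*, 16.6 to 17.2 TPM, lie between them.

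Of 30 T-lineage genes, 5 were nearest to one of these peaks, among them *Thy1*, *Cd247*, *Hes1* and *Lef1*, and of the 3 tested *Thy1* and *Cd247* fell and none rose. In the whole list 6 of 20 tested genes fell and none rose, with a median log2 fold change of -0.78. *Thy1*, the surface marker of T cells, had 313, 332.2 and 299.6 TPM in sgCont, 195, 137.2 and 136.5 TPM in sgZbtb1 and 207, 250.7 and 222.1 TPM in sgCbfa2t3, below sgCont in all 6 libraries of these groups. In sgLmo2 it had 363.6, 397 and 374.2 TPM, above the 3 sgCont libraries (log2 fold change 0.26, limma adjusted p = 0.838), and in sgCbfa2t2 292.7, 283 and 248.3 TPM. On the log2 scale the changes in sgZbtb1 and sgCbfa2t3 came to -1.03 ± 0.106 and -0.48 ± 0.106 (limma adjusted p = 6.49e-11 and 0.0140), and the second was lost without sgCont replicate 2 or sgCbfa2t3 replicate 1 (limma adjusted p = 0.113 and 0.149). Its peak (score 73.6) lay 493 bp downstream of the promoter, with no CpG island and no Runx core in the 200 bp window, and a Cbfa2t3 peak lay 2944 bp away. *Cd247*, the zeta chain of the T-cell receptor complex, fell from a mean of 6.40 to 0.650 TPM (log2 fold change -2.25, limma adjusted p = 0.0100).

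Of 43 haematopoietic transcription factors, 10 were nearest to a peak and all 10 were tested. *Runx1* fell and *Lyl1* rose, against 5 lower and 2 higher of 39 in the whole list, where the other higher gene was *Zbtb1*, the targeted gene itself. *Runx1*, which encodes a factor that binds the Runx core, was nearest to 4 peaks, with scores of 65.9, 23.7, 74.1 and 59.8 at 76135, 61035, 25060 and 3846 bp. It had 333.9, 323.5 and 302.6 TPM in sgCont and 178.2, 186.5 and 174.8 TPM in sgZbtb1, a tight separation (log2 fold change -0.83 ± 0.0980, limma adjusted p = 3.28e-09), and 319, 284.9 and 255.9 TPM in sgCbfa2t3 (log2 fold change -0.16, limma adjusted p = 0.588). *Lyl1*, a helix-loop-helix partner of Lmo2, had 156.2, 167.3 and 155.4 TPM against 232.4, 239.5 and 212.6 TPM (log2 fold change 0.51 ± 0.107, limma adjusted p = 0.000943). A shared Zbtb1 and Cbfa2t3 peak also stood next to each of *Runx1* and *Lyl1*.

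The other factors with a peak did not pass. *Mef2c*, a factor of early lymphoid cells, had 869.9, 930.1 and 1021 TPM in sgCont and 849.2, 1026 and 1047 TPM in sgZbtb1, and *Runx3*, a sister of *Runx1*, had means of 290.2 and 282.5 TPM. *Klf2*, a factor of lymphocyte quiescence, had 31.9, 38.8 and 34.0 TPM against 19.6, 36.8 and 18.2 TPM, overlapping groups (log2 fold change -0.54 ± 0.245, limma adjusted p = 0.219). *Etv6*, *Zfpm1*, *Nfkb1*, *Stat5b* and *Zbtb7a* were the remaining members.

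Cytokine receptors and their signalling gave 7 nearest genes of 35. *Tgfbr1*, a TGF-beta receptor, was the only one that passed, with 36.6, 26.1 and 34.6 TPM in sgCont and 14.0, 12.9 and 15.7 TPM in sgZbtb1 (log2 fold change -1.13 ± 0.268, limma adjusted p = 0.00505). Its peak lay 50454 bp away in *Col15a1*, with a Cbfa2t3 peak 353 bp from it. *Flt3*, the receptor of an early lymphoid growth factor, had 275.8, 199.7 and 218.7 TPM against 241.3, 200.8 and 197.9 TPM, and *Il4ra* had means of 103.8 and 85.5 TPM (limma adjusted p = 0.661 and 0.261). *Pik3cd*, the p110-delta kinase, was lower in sgCbfa2t3, at 183.4, 181.6 and 164.5 TPM against 239.8, 277.8 and 249.2 TPM (log2 fold change -0.53 ± 0.104, limma adjusted p = 0.00228, and 0.0680 without sgCont replicate 2), and had 213.4, 212.8 and 197.9 TPM in sgZbtb1 (limma adjusted p = 0.0848). *Socs1*, *Il6ra* and *Ifngr1* did not pass in sgZbtb1. In the whole list 3 of 34 tested genes fell and none rose.

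The other lists held few changed genes with a peak. Of 26 Notch pathway genes, *Hes1*, *Psen2* and *Numb* were nearest to a peak and none passed in sgZbtb1, with 34.3, 30.1 and 29.9 TPM of *Psen2*, a gamma-secretase subunit, in sgCont and 33.0, 33.5 and 27.5 TPM in sgZbtb1. Another 3 peaks lay inside *Maml3*, a Notch coactivator, but were assigned to *Mgst2*. *Maml3* had 85.4, 116.9 and 113.8 TPM against 83.2, 68.4 and 52.1 TPM (log2 fold change -0.64 ± 0.170, limma adjusted p = 0.0145) and was the only called gene of the 21 tested in the list. The call was kept in 9 of 14 alternatives and lost without sgCont replicate 2, sgCont replicate 3 or sgZbtb1 replicate 3 (limma adjusted p = 0.106, 0.0958 and 0.185). Of 23 genes of the p53 pathway and survival, *Trp53inp1*, a p53 target, stood next to a CpG-island peak and had means of 57.2 and 53.1 TPM (limma adjusted p = 0.812). Its whole list had 3 higher genes and 1 lower of 22 tested. Of 27 B-lineage genes only *Foxo1*, next to 2 peaks, was a nearest gene and it did not pass, against 4 lower of 19 tested in the list. Of 30 chromatin regulators 6 were nearest genes, among them *Eed*, *Ncor1*, *Dnmt3a*, *Tet1* and *Smarca4*, and none of them passed, against 1 higher of 30 in the list.

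Several genes stood next to more than 1 peak. A single peak was assigned to 873 genes, 2 peaks to 56, 3 peaks to 10 and 4 peaks to *Celsr1*, *Plekha7* and *Runx1*. The 4 peaks of *Celsr1*, an adhesion receptor of planar cell polarity, lay in its first intron at chr15:85982176-85982546, chr15:85994517-85994887, chr15:85996920-85997290 and chr15:86022026-86022396, with scores of 43.4, 53.8, 25 and 44.4. *Celsr1* had 44.1, 35.3 and 45.2 TPM in sgCont and 26.8, 17.7 and 23.1 TPM in sgZbtb1 without overlap (log2 fold change -0.87 ± 0.226, limma adjusted p = 0.0122, and 0.0527, 0.0739 and 0.107 without sgCont replicate 1, sgCont replicate 3 or sgZbtb1 replicate 2). *Plekha7* had means of 58.2 and 47.0 TPM, and its libraries overlapped (limma adjusted p = 0.325).

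Among the 10 genes with 3 peaks, *Mgst2* and *Sipa1l1* passed, both lower in sgZbtb1. *Mgst2*, a microsomal glutathione transferase, had 248.6, 273.2 and 259.8 TPM in sgCont and 147.5, 146.3 and 137.5 TPM in sgZbtb1 (log2 fold change -0.85 ± 0.101, limma adjusted p = 3.19e-09), and 6 shared intronic peaks were also assigned to it. *Sipa1l1* had means of 186.4 and 140.1 TPM (limma adjusted p = 0.0363). Its call was kept in only 6 of 14 alternatives, with an adjusted p of up to 0.226 without sgZbtb1 replicate 2, and was lost with edgeR, with DESeq2 and without sgCont replicate 1, sgCont replicate 2 or sgZbtb1 replicate 3. *Prr5l* had 23.8, 19.1 and 19.9 TPM against 11.7, 10.5 and 10.3 TPM, which did not overlap but did not pass (limma adjusted p = 0.0504). *Foxp1*, a factor of lymphocyte development with means of 1143 and 1086 TPM, *Map3k20*, *Ralb*, *Kctd1* and *Gm6402* did not pass, and *Wnk2* and *2010106C02Rik* were listed at 0 in every library.

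In sgCbfa2t3, 11 of the 716 tested nearest genes passed (1.54%), against 0.537% of all genes. The 1 that rose (0.14%, against 0.13% of all genes) was *Arid3a*, an AT-rich interaction domain factor of B cells, and the 10 that fell (1.40%, against 0.407%) were *Abcb4*, *Trio*, *Cpne2*, *Prkch*, *Fndc3a*, *Itsn1*, *Pik3cd*, *Thy1*, *Ptpn1* and *Med13l*. All 11 stood next to peaks outside CpG islands. *Trio*, a guanine nucleotide exchange factor of small GTPases, differed from sgCont by -1.24 ± 0.295 on the log2 scale in sgCbfa2t3 and -1.35 ± 0.295 in sgZbtb1 (limma adjusted p = 0.0236 and 0.00178), and *Prkch*, a protein kinase C of lymphocytes, -0.82 ± 0.169 and -0.95 ± 0.169 (limma adjusted p = 0.00447 and 7.02e-05). *Arid3a* had 0.59 ± 0.116 and 0.43 ± 0.116 (limma adjusted p = 0.00228 and 0.0156). Both comparisons use the same sgCont libraries. The sgCbfa2t3 call of *Trio* was kept in 8 of 13 alternatives and was lost, among others, without sgCont replicate 1, sgCont replicate 3 or sgCbfa2t3 replicate 1 (limma adjusted p = 0.0813, 0.0898 and 0.276). Without sgCont replicate 2 the count was 1 (0.140%), below the 0.225% of all genes, so that the higher share next to these peaks was lost and the call of *Arid3a* alone was kept. Without sgCont replicate 3 or sgCbfa2t3 replicate 1 it was 6 (0.838%, against 0.234 and 0.260%), and without sgCbfa2t3 replicate 2 it was 7 (0.978%, against 0.398%). The summed markers of lymphoid progenitors were also lower in sgCbfa2t3, at 897 to 1015 TPM against 1101 to 1154 TPM in sgCont, as were those of B cells past the *Ebf1* step, at 1.61 to 4.00 TPM against 5.21 to 8.79 TPM, and their part in these results was not tested.

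No nearest gene passed in sgLmo2 or in sgCbfa2t2 by limma, against 0.0173 and 0.147% of all genes. At an unadjusted limma p under 0.05, 52 and 77 of the 716 passed (7.26 and 10.8%, against 5.65 and 9.56% of all genes), and edgeR and DESeq2 on the recovered reads also called none in either group. For a single gene, 3 libraries against 3 allow no exact permutation p below 0.1, which *Tcf7l2*, *Itpr2*, *Runx1* and *Thy1* reached in sgZbtb1 (two-sided). *Tcf7l2* and *Itpr2* were chosen for no overlap between the libraries, so that this value was fixed by the choice. The sgZbtb1 and sgCont libraries did not overlap for 210 of the 716 nearest genes (29.3%) and for 22.9% of all genes tested.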

How the data were processed

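Unedited LPs were profiled by ChIP-seq for Zbtb1 and Cbfa2t3, and 15 libraries of Cas9-expressing LPs (5 groups, 3 libraries each, described as biological replicates) by QuantSeq. Per the labels and the study's methods, the authors aligned ChIP reads to mm10 with Bowtie 1.1.1, called peaks against input with HOMER, kept those reproducible in both replicates with a score of at least 15, and annotated them. The deposited lists give 1 score per peak, HOMER's normalised tag count, and the authors' focus ratio, a fraction of tags on the side of the peak centre where they belong, which was not used further. For expression, the authors used fastp and STAR and deposited values named TPM. These deposited values are CPM (the authors scaled reads to the library total), as 99.99% of them came out as whole reads within 0.05 reads, without length correction. The row without a gene name held 4.77e-05 to 5.86e-05% of the total.

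Peaks were taken as shared when they had 1 base in common. Motifs were counted in 200 bp of GRCm38.p6 with pysam 0.24.0 on Python 3.11.15, pandas 2.3.3, numpy 2.4.6 and samtools 1.23.1, with Wilson and Newcombe 95% intervals. Expression was tested on log2(TPM + 1) with limma 3.58.1 (R 4.3.3, trend) in 1 fit of 15 libraries, for the 11554 genes with a mean above 1 TPM, with Benjamini-Hochberg adjustment over all of them. Alternatives used edgeR 4.0.16 and DESeq2 1.42.0 on the recovered reads, other filters, links and pseudocounts, and the leaving out of libraries. Scripts were tested on simulated data. Plots used matplotlib 3.10.9, and scipy 1.17.1 gave the exact tests.

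Genes were named when they were nearest to the 10 highest scores, changed most in sgZbtb1 (up to 6 in each direction, protein-coding, mean above 10 TPM in either group, adjusted p under 0.05, no overlap), belonged to a gene list and exceeded 10 TPM in sgCont (at most 5 a list), or stood next to the most peaks. Others named are given as members of a list or count. The peaks, lists and rules were chosen with earlier results of these data known. A few genes and 1 sequence that these rules select are not reported here. Input samples were not analysed here, and p-values measure the spread between the libraries. The comparisons with shared and intergenic peaks outside CpG islands were chosen after seeing the data.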

Additional observations from a re-analysis of the deposited data

How the results depend on the processing

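With a score of at least 30, 424 peaks remained, with a median score of 46.0 and 6.37% in interspersed repeats. That share was 14.3% without CpG-island peaks and 8.86% with simple repeats kept. The Runx core share of all peaks was 71.2% without CpG islands, 47.5% in 100 bp and 60.4% in 400 bp, and its ratio to windows 1 kb away was 3.93. The TGGTGGT share was 20.4% without CpG islands, 25.8% with simple repeats kept, 13.2% in 100 bp, 19.5% in 400 bp and 10.3% without windows of 3 or more copies. Leaving out CpG islands or such windows was chosen after seeing the data.

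The 56 nearest genes called in sgZbtb1 (7.82%, against 4.79% of all genes) were 36 with all genes above 0 tested (4.42 against 1.77%), 26 within 10 kb of a promoter (6.05%), 20 at a score of at least 30 (6.99%), and 36 to 48 without 1 library (5.03 to 6.70%, against 2.65 to 3.97%). edgeR called 56 (52 in common) and DESeq2 53 (50 in common). The 25 with a log2 fold change over 1 (3.49%) became 10 within 10 kb (2.33%), 10 of 286 at a score of at least 30, and 24 to 28 without 1 library. The 11 in sgCbfa2t3 (1.54%, against 0.537%) became 3 with all genes above 0 (0.368 against 0.129%), 7 with DESeq2 (0.978 against 0.459%, with no adjusted p for the other 4), 6 within 10 kb (1.40%), 5 at a score of at least 30 (1.75%), and 1 to 10 without 1 library. Under the alternatives run, the share stayed above that of all genes except without sgCont replicate 2 (0.140 against 0.225%). In sgLmo2 the count was 0 to 0, and in sgCbfa2t2 0 to 1, without 1 library. Causes were not tested, although the distance and score limits leave fewer genes. Of the values of single genes under alternatives, 557 kept their direction and side of the threshold, 32 changed sign without a call on either side, 1 had no adjusted p by DESeq2, 32 lost a call (37 with the 5 of *Maml3*, counted apart) and 4 gained one.

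Replicate numbers are shared between groups. Deviations of same-numbered libraries correlated at only -0.0071 to 0.066, but 10 of 12 correlated best with their own number. The main fit did not take the numbers as pairs, and whether same-numbered libraries belong together was not tested. With a replicate block, 69 nearest genes were called in sgZbtb1 (9.64%, against 6.14% of all genes), 25 passed the log2 fold change rule, and 12, 0 and 1 were called in sgCbfa2t3 (1.68 against 0.805%), sgLmo2 and sgCbfa2t2 (0.140 against 0.312%). Peaks had no replicate values and the lists begin at a minimum score, so that a weak Cbfa2t3 signal under its list's lowest score was not detectable.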
